A study of Mus musculus with 9 samples.

Results

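The genes described here are 10 genes used as markers of smooth muscle cells, pericytes and myofibroblasts, out of 41710 gene names in the transcript tables of mouse hearts. They were chosen by name (Acta2, Tagln, Myh11, Cnn1, Myl9, Smtn, Lmod1, Actg2, Pdgfrb and Cspg4), and their transcripts were summed by gene. All 10 passed the filter on low read counts. RNA sequencing was performed on 9 hearts of 8-month-old male mice with FVB/N background, 3 per group, with 1 library per heart. The Tg-RKIP hearts carried a transgene for RKIP, the Raf kinase inhibitor protein encoded by Pebp1, which the study describes as myocardium-specific and driven by the alpha-MHC promoter. The second group was labelled Tg-GRK2, for G-protein-coupled receptor kinase 2, and the promoter of the transgene so labelled is not given in the sources used here. The third group was made up of non-transgenic FVB hearts.

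Smooth muscle cells of the vessel wall contract through filaments of smooth muscle actin and smooth muscle myosin, and calponin, transgelin and leiomodin sit on the actin filament. Pericytes are the mural cells of capillaries, and myofibroblasts are fibroblasts of injured or stressed tissue that express smooth muscle actin. Several of these genes are known targets of serum response factor and its myocardin-family partners, which bind a DNA element called the CArG box.

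The libraries held between 25458108 and 33447654 reads. Pebp1 transcript levels were 16198.5 ± 208 TPM (deposited abundance per transcript, scaled by its length, SD, n = 3) in Tg-RKIP hearts, beside 325 ± 4.54 TPM for the FVB group. Grk2 transcript levels were 27.3 ± 2.90 TPM in the libraries labelled Tg-GRK2, beside 27.1 ± 1.05 TPM for FVB hearts (SD, n = 3), so these libraries are named by their label throughout. Replicate 1 of the group labelled Tg-GRK2 stood apart, with 1.31% of its reads on the ribosomal RNA gene Rn18s against 0.168% to 0.270% in the other 8 libraries. Mitochondrial genes took 22.4% to 23.2% of the reads in 6 libraries, but 11.5% to 11.8% in the Tg-RKIP hearts. Scaling by library size alone moved the median log2 fold change of all genes between Tg-RKIP and FVB to 0.38, against 0.01 with edgeR's TMM scaling, which is used below unless another scale is named. Library size counted without mitochondrial genes, Pebp1 and Pbp2 gave a median of 0.20, with 9 of the 10 genes called higher and 1 lower. Beyond this, the part of the mitochondrial difference in the results was not tested. In RNA of whole hearts, fewer or more cells of a type and less or more RNA per cell cannot be told apart.

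Transcript levels of 9 of the 10 genes were higher in Tg-RKIP than in FVB hearts, and that of Myh11 was lower. In TPM the Tg-RKIP and FVB hearts did not overlap for these 9 genes and overlapped for Myh11, while 78.8% of all genes tested did not overlap. The members with the highest differences were Myl9, Cnn1, Tagln and Acta2, whose read counts were 2.31-fold to 3.00-fold those of FVB hearts (edgeR quasi-likelihood test with Benjamini-Hochberg adjustment, as for every adjusted p of the text unless another tool is named). Among all 15504 genes tested, 36.8% were called higher in Tg-RKIP hearts and 37.1% were called lower, so a call by itself was frequent in this comparison. A log2 fold change of at least 1 together with a call was met by 4 of the 10 genes and by 10.2% of all genes tested. The median log2 fold change of the 10 genes was 0.77, beside 0.01 for all genes tested. Both comparisons with FVB hearts use the same 3 control libraries.

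**Figure D1:**
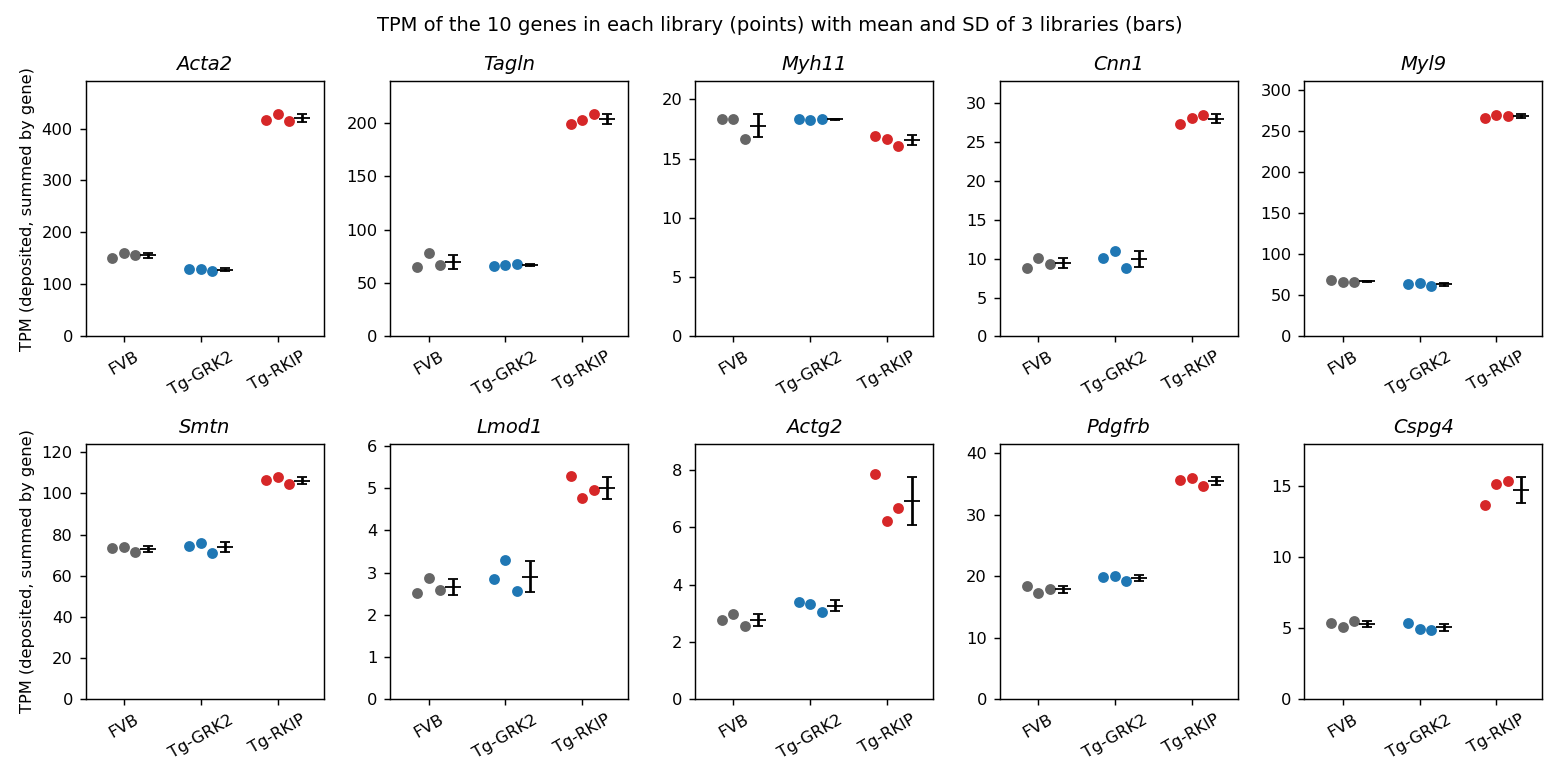
Deposited TPM, summed by gene, of the 10 genes in each of the 9 libraries (points) with the mean and SD of 3 libraries (bars), on linear axes that start at 0. For Acta2 the Tg-RKIP hearts lie between 414 and 428 TPM and the FVB hearts between 150.1 and 160.3 TPM, whereas the Myh11 values of both groups overlap.

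Acta2 encodes the smooth muscle alpha-actin, the main actin of vascular smooth muscle and of myofibroblasts. Its TPM values were 417, 428 and 414 in Tg-RKIP hearts, 150.1, 160.3 and 157 in FVB hearts, and 129.7, 130.4 and 126 in the libraries labelled Tg-GRK2. All Tg-RKIP values lay above all others, and the values labelled Tg-GRK2 lay below those of FVB hearts without overlap. The log2 fold change of read counts was 1.21 between Tg-RKIP and FVB hearts (SE 0.019, adjusted p = 1.03e-22, edgeR). It was -0.30 between the libraries labelled Tg-GRK2 and FVB hearts (SE 0.020, adjusted p = 3.94e-10, edgeR).

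Actg2 encodes the gamma-actin of visceral smooth muscle. In TPM, its levels were 7.84, 6.23 and 6.68 in Tg-RKIP hearts, 2.77, 2.96 and 2.54 in FVB hearts, and 3.40, 3.32 and 3.04 in the libraries labelled Tg-GRK2. The 3 groups did not overlap, with Tg-RKIP hearts highest, and the gene had only 58 to 174 reads per library. Between Tg-RKIP and FVB hearts the log2 fold change was 0.90 (SE 0.125, adjusted p = 1.39e-06, edgeR). With only its most abundant transcript counted, the value was again 0.90 but no longer past the threshold (adjusted p = 0.094, edgeR).

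Tagln encodes transgelin, an actin-binding protein of smooth muscle. The TPM of this gene was 199, 203 and 208 in Tg-RKIP hearts, 65.0, 77.6 and 67.1 in FVB hearts, and 65.5, 67.3 and 67.8 in the libraries labelled Tg-GRK2. Tg-RKIP hearts were highest without overlap, and the other 2 groups overlapped. The log2 fold change between Tg-RKIP and FVB hearts was 1.31 (SE 0.032, adjusted p = 1.505e-19, edgeR). The exons of all Tagln transcripts together share 1241 bases with the antisense gene Gm48529, and 48.3% of the stretches of 50 bases in the main transcript also occur in other genes. Gm48529 had 71 to 90 reads in Tg-RKIP hearts and 23 to 74 reads in the other 6 libraries, beside at least 1639 reads for Tagln.

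Cnn1 encodes calponin 1, which binds actin and tropomyosin in differentiated smooth muscle. In TPM units it reached 27.3, 28.1 and 28.5 in Tg-RKIP hearts, 8.84, 10.1 and 9.28 in FVB hearts, and 10.1, 10.97 and 8.86 in the libraries labelled Tg-GRK2. The Tg-RKIP values lay apart from those of both other groups, which overlapped each other. Between Tg-RKIP and FVB hearts the log2 fold change was 1.32 (SE 0.064, adjusted p = 3.37e-14, edgeR).

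Lmod1 encodes leiomodin 1, which nucleates actin filaments in smooth muscle. Levels in TPM amounted to 5.28, 4.78 and 4.97 in Tg-RKIP hearts, 2.51, 2.87 and 2.597 in FVB hearts, and 2.85, 3.29 and 2.56 in the libraries labelled Tg-GRK2. Again the Tg-RKIP values were highest and the other 2 groups overlapped. The log2 fold change between Tg-RKIP and FVB hearts was 0.49 (SE 0.085, adjusted p = 2.44e-05, edgeR), the second smallest among the 9 genes that rose.

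Myl9 encodes the regulatory light chain of smooth muscle myosin, whose phosphorylation starts contraction. Its TPM values were 266, 270.0 and 268 in Tg-RKIP hearts, 68.2, 66.5 and 66.0 in FVB hearts, and 64.0, 64.6 and 61.5 in the libraries labelled Tg-GRK2. The 3 groups did not overlap, with Tg-RKIP far above the other 2. Between Tg-RKIP and FVB hearts the log2 fold change was 1.59 (SE 0.026, adjusted p = 1.16e-22, edgeR), the largest of the 10 genes.

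Myh11 encodes the smooth muscle myosin heavy chain, the partner of this light chain and the most restricted marker of mature smooth muscle. In TPM, its levels were 16.9, 16.7 and 16.1 in Tg-RKIP hearts, 18.3, 18.3 and 16.7 in FVB hearts, and 18.3, 18.3 and 18.4 in the libraries labelled Tg-GRK2. In TPM the Tg-RKIP and FVB hearts overlapped, with FVB replicate 3 below the other 2 FVB hearts. In TMM-normalized counts they did not overlap, at 1679 to 1729 in Tg-RKIP hearts against 2304 to 2519 in FVB hearts, as was so for 75.7% of all genes tested. The log2 fold change of read counts was -0.51 (SE 0.032, adjusted p = 3.66e-12, edgeR). It was -0.14 with library size only (adjusted p = 0.00061, edgeR) and -0.10 in limma on log2(TPM + 0.1), where it missed the threshold (adjusted p = 0.058). The sum over its transcripts was thus lower under each of these scalings, while its size and its call depended on the scaling. With the most abundant transcript alone in place of the sum, Myh11 was at -0.27 with TMM (adjusted p = 0.037, edgeR) but at 0.17 with library size only, where it did not pass (adjusted p = 0.153, edgeR). This 41-exon transcript had 14.7, 15.3 and 14.5 TPM in Tg-RKIP hearts and 14.7, 12.7 and 12.4 TPM in FVB hearts, so its direction turned with the scaling. In the fit of all transcripts it was at -0.22 and did not pass (SE 0.0999, adjusted p = 0.133, edgeR), whereas 2 minor transcripts of 42 exons fell. The one of 6214 bases was at -1.02 (SE 0.25, adjusted p = 0.016, edgeR) and the one of 6450 bases at -5.24 (SE 1.43, adjusted p = 0.024, edgeR), the latter from few reads that varied widely between replicates.

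Smtn encodes smoothelin, a cytoskeletal protein of contractile smooth muscle. The TPM of this gene was 107, 108 and 104 in Tg-RKIP hearts, 73.7, 74.0 and 71.3 in FVB hearts, and 74.6, 76.1 and 71.1 in the libraries labelled Tg-GRK2. Tg-RKIP hearts were highest without overlap, and the other 2 groups overlapped. The log2 fold change between Tg-RKIP and FVB hearts was 0.16 (SE 0.026, adjusted p = 1.56e-05, edgeR), the smallest among the genes that rose. In the deposited assignment of reads to transcripts, a protein-coding transcript of 9 exons and 1747 bases held most of the Smtn reads. Its share was 65.5% ± 1.10 in Tg-RKIP hearts and 64.7% ± 1.12 in FVB hearts (SD, n = 3), and this split could not be checked.

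Pdgfrb encodes the platelet-derived growth factor receptor beta, through which mural cells are recruited to vessels, and fibroblasts carry it too. In TPM units it reached 35.7, 36.0 and 34.8 in Tg-RKIP hearts, 18.5, 17.3 and 17.9 in FVB hearts, and 19.9, 20.0 and 19.2 in the libraries labelled Tg-GRK2. The 3 groups did not overlap. Between Tg-RKIP and FVB hearts the log2 fold change was 0.57 (SE 0.028, adjusted p = 3.72e-14, edgeR).

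Cspg4 encodes the proteoglycan NG2, a surface marker of pericytes and of some smooth muscle and precursor cells. Levels in TPM amounted to 13.7, 15.2 and 15.4 in Tg-RKIP hearts, 5.35, 5.11 and 5.49 in FVB hearts, and 5.36, 4.96 and 4.90 in the libraries labelled Tg-GRK2. Tg-RKIP hearts were highest without overlap, and the other 2 groups overlapped. The log2 fold change of read counts summed by gene was 0.65 between Tg-RKIP and FVB hearts (SE 0.052, adjusted p = 2.46e-10, edgeR).

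In the deposited assignment of reads to transcripts, the higher Cspg4 value lay mostly in a single transcript. How reads of overlapping transcripts were divided is not given in the sources used here, and this transcript lies within the span of the coding one, so the split is that of an unknown counting program. A retained-intron transcript of 2 exons, at chr9:56803607-56807153 in the deposited GRCm39 coordinates, had 592, 861 and 667 reads in Tg-RKIP hearts and 149, 183 and 155 reads in FVB hearts. It had 135, 96 and 145 reads in the libraries labelled Tg-GRK2. The protein-coding transcript of 10 exons and 8121 bases had 386, 443 and 384 reads in Tg-RKIP hearts, 357, 390 and 377 in FVB hearts, and 467, 472 and 458 in the libraries labelled Tg-GRK2. The retained-intron transcript was high in Tg-RKIP hearts without overlap, and the coding transcript was not. The retained-intron share of the Cspg4 reads was 62.1% ± 1.56 in Tg-RKIP hearts against 28.9% ± 2.24 in FVB hearts (SD, n = 3). In an edgeR fit of 34991 transcripts, of which 34% were called, the retained-intron transcript rose with a log2 fold change of 1.78 (SE 0.13, adjusted p = 2.14e-05), while the coding transcript had -0.22 (SE 0.090, adjusted p = 0.104). With reads summed over protein-coding transcripts only, an alternative chosen after these values were seen, the Cspg4 log2 fold change turned to -0.23 (adjusted p = 0.026, edgeR). This turn was itself bound to TMM scaling, since the same sum with library size only was at 0.15 and did not pass (adjusted p = 0.117, edgeR), and the coding transcript had 2.84, 2.52 and 2.85 TPM in Tg-RKIP hearts against 2.42, 2.32 and 2.59 TPM in FVB hearts, which overlap. The direction of Cspg4 without its retained-intron transcripts therefore depended on the scaling.

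**Figure D2:**
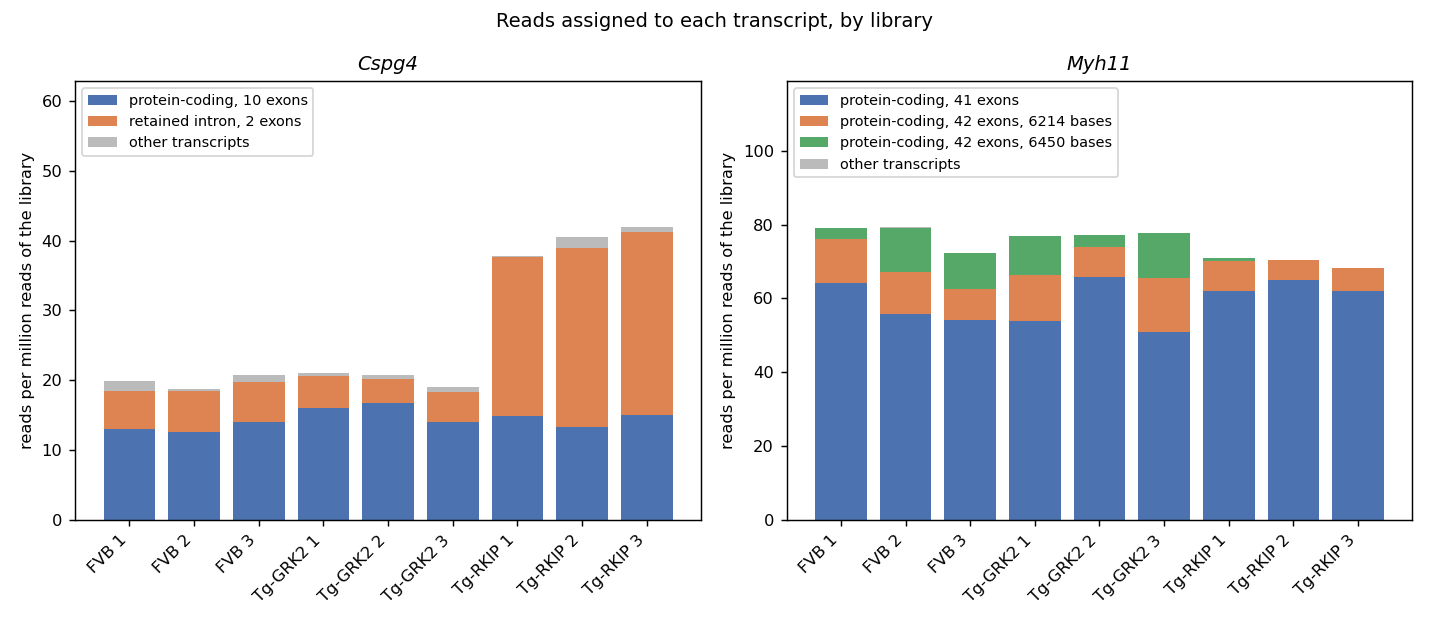
Reads assigned to the transcripts of Cspg4 (left) and Myh11 (right), relative to the total reads of the library, in stacked bars for each of the 9 libraries. The retained-intron transcript of Cspg4 is higher in the 3 Tg-RKIP hearts, with 592 to 861 reads against 149 to 183 reads in FVB hearts, while the protein-coding transcript has 357 to 472 reads over the 9 libraries.

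The split of reads among transcripts differed in other genes as well, and for single transcripts it varied strongly between replicates. Myh11 reads were assigned to the 41-exon transcript by 90.2% ± 2.31 in Tg-RKIP hearts, against 75.5% ± 5.42 for FVB (SD, n = 3). A 42-exon Myh11 transcript of 6450 bases had 22, 0 and 0 reads in Tg-RKIP hearts and 79, 373 and 267 reads in FVB hearts, so the replicates of a group differed widely. Acta2 reads went to the 9-exon transcript by 97.4% ± 1.5 in Tg-RKIP hearts and by 87.0% ± 3.20 in FVB hearts (SD, n = 3).

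**Figure D3:**
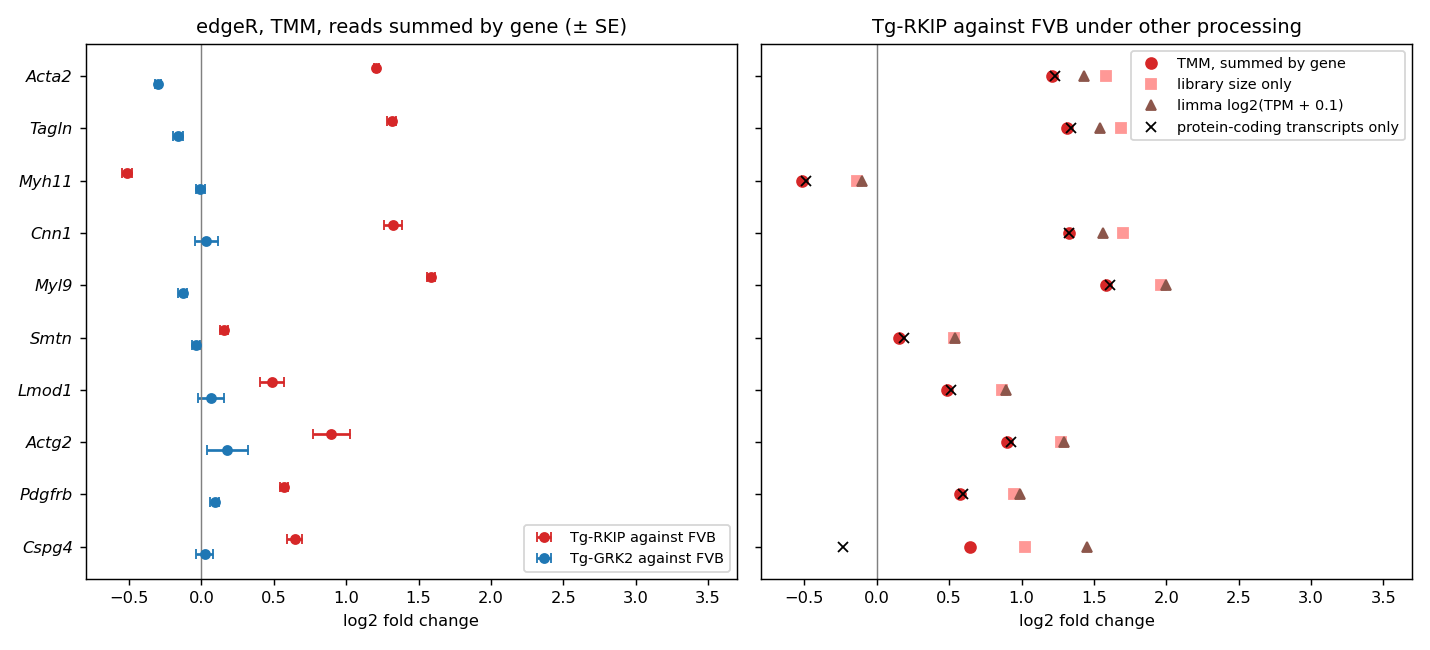
Left, log2 fold change of read counts with its SE (edgeR, TMM) of the 10 genes for Tg-RKIP hearts and the libraries labelled Tg-GRK2, each against FVB hearts. Right, the Tg-RKIP comparison under 3 other ways of processing; Myh11 stays below 0 in all of them, and Cspg4 changes sign, from 0.65 to -0.23, when protein-coding transcripts alone are summed with TMM scaling.

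Ratios of TPM values within a library do not depend on the scaling between libraries. The ratio of Myl9 to Myh11 was 16.2 ± 0.46 in Tg-RKIP, 3.77 ± 0.17 in FVB hearts and 3.46 ± 0.10 in the libraries labelled Tg-GRK2 (SD, n = 3). The ratio of Acta2 to Myh11 was 25.4 ± 0.58, 8.78 ± 0.61 and 7.02 ± 0.16 in the same order (SD, n = 3). Both ratios were higher in every Tg-RKIP heart than in any other heart. The ratio of Smtn to Myh11 went from 4.11 ± 0.14 in FVB hearts to 6.42 ± 0.089 in Tg-RKIP hearts (SD, n = 3). With 3 against 3 hearts an exact two-sided permutation test cannot give a p below 0.1, and these 3 ratios reached p = 0.1 between Tg-RKIP and FVB hearts. The summed TPM of the 10 genes was 1104 ± 10.9 in Tg-RKIP, 421 ± 12.0 in FVB hearts and 392 ± 8.31 in the libraries labelled Tg-GRK2 (SD, n = 3). Acta2, Myl9 and Tagln held 38.0%, 24.3% and 18.4% of this sum in Tg-RKIP hearts, and 37.0%, 15.9% and 16.6% in FVB hearts. Myh11 held 4.22% in FVB hearts and 1.5% in Tg-RKIP hearts, a share that was lower in every Tg-RKIP heart.

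The order of the 10 genes by TPM, which accounts for transcript length, was headed by Acta2 in all 3 groups. In FVB hearts Smtn (73.0 ± 1.47), Tagln (69.9 ± 6.75) and Myl9 (66.9 ± 1.13) followed (SD, n = 3), and the Tagln values overlapped those of both Smtn and Myl9, which did not overlap each other. Pdgfrb (17.9 ± 0.61) and Myh11 (17.8 ± 0.95) were also not separated in FVB hearts (SD, n = 3). Actg2 (2.76 ± 0.21) and Lmod1 (2.66 ± 0.19) were the lowest of the 10 genes there and overlapped (SD, n = 3). In Tg-RKIP hearts the order after Acta2 was Myl9, Tagln, Smtn, Pdgfrb and Cnn1, and Myh11 (16.6 ± 0.40) and Cspg4 (14.7 ± 0.92) came next without overlap (SD, n = 3). Of this Cspg4 value, 10.8 to 12.3 TPM were assigned to the retained-intron transcript and 2.52 to 2.85 TPM to the coding one.

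In the libraries labelled Tg-GRK2, 3 genes were lower than in FVB hearts, 1 was higher and 6 did not pass the test. Among all genes tested, 12.2% were called lower and 12.2% were called higher. The genes that fell were Acta2, Tagln with a log2 fold change of -0.16 (SE 0.036, adjusted p = 0.0017, edgeR) and Myl9 with -0.13 (SE 0.030, adjusted p = 0.0024, edgeR). In TMM-normalized counts these 3 genes did not overlap between the groups, nor did Actg2 and Pdgfrb, whose values were higher than in FVB hearts. Of all genes tested, 37.1% did not overlap. In TPM the groups did not overlap for Acta2, Myl9, Actg2 and Pdgfrb, and 33.8% of all genes tested did not. In limma on log2(TPM + 0.1) the Tagln difference was -0.06 (adjusted p = 0.499) and the Myl9 difference was -0.08 (adjusted p = 0.058), so both calls were lost, and that of Acta2 was kept with -0.28 (adjusted p = 0.00015). The gene called higher was Pdgfrb, with 0.09 (SE 0.029, adjusted p = 0.025, edgeR). Without replicate 1 of the group labelled Tg-GRK2, Pdgfrb was at 0.08 and no longer past the threshold (adjusted p = 0.094, edgeR). It also missed the threshold without replicate 2 of that group (adjusted p = 0.065, edgeR), without FVB replicate 2 (adjusted p = 0.145, edgeR) and without FVB replicate 3 (adjusted p = 0.055, edgeR). The other 6 genes had log2 fold changes between -0.04 for Smtn and 0.18 for Actg2 (adjusted p = 0.366 and 0.400, edgeR). Leaving out replicate 1 of the group labelled Tg-GRK2 changed no other call of the 10 genes, with Acta2 at -0.30, Tagln at -0.14 and Myl9 at -0.14.

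Tg-RKIP hearts were also set directly against the libraries labelled Tg-GRK2, to test whether these groups differ from each other. Of the 10 genes, 9 were higher and 1, Myh11, was lower in Tg-RKIP hearts, while 37.9% of all genes tested were called higher and 36.6% were called lower. Myl9 differed by a log2 fold change of 1.71 (SE 0.026, adjusted p = 3.54e-23, edgeR) and Acta2 by 1.51 (SE 0.020, adjusted p = 3.53e-24, edgeR). Myh11 differed by -0.51 (SE 0.032, adjusted p = 3.89e-12, edgeR), but by -0.23 with its most abundant transcript alone, which missed the threshold (adjusted p = 0.067, edgeR), and by 0.20 when that transcript was scaled by library size only (adjusted p = 0.095, edgeR). For Cspg4 the value was 0.62 (SE 0.051, adjusted p = 3.14e-10, edgeR) with all transcripts and -0.45 (adjusted p = 0.00041, edgeR) with protein-coding transcripts only, which became -0.08 with library size only (adjusted p = 0.406, edgeR).

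The promoters of the genes that moved together are shown because several are known targets of serum response factor. RefSeq promoter sequences of the GRCm38.p6 build, another build than that of the deposited coordinates, were at hand for 6 of the 10 genes, namely Acta2, Cnn1, Myl9, Smtn, Lmod1 and Cspg4. The bases from 250 to 51 before the annotated start are printed 5′ to 3′ on the strand of the gene for the 3 of them whose log2 fold change was above 1. They lie at chr19:34255424-34255623 (minus strand, Acta2), chr2:156775214-156775413 (plus strand, Myl9) and chr9:22099003-22099202 (plus strand, Cnn1). Capitals mark a CArG box, with at most 1 G or C allowed among its 6 middle bases, and the motif CATTCC of TEAD factors, searched on both strands (GGAATG on the other).
Acta2: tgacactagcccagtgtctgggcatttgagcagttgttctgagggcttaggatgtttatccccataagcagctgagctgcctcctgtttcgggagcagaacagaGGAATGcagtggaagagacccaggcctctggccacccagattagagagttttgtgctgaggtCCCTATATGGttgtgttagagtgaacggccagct
Myl9: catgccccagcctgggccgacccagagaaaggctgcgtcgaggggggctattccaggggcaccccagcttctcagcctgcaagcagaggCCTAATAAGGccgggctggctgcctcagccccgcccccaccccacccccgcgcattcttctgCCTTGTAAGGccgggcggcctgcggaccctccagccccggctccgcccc
Cnn1: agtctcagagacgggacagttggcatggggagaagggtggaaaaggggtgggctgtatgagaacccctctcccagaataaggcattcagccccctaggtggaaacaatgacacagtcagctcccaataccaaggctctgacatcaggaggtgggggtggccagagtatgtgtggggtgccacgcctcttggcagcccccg

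The Myl9 window held 1 CArG box without a G or C in its middle, 161 bases before the start, which 1.16% of the 32851 promoter windows of this length hold. It also held 1 box with such a base, 99 bases before the start. The Acta2 window held 1 box of this relaxed form, 84 bases before the start, which together with the strict form occurs in 7.16% of the windows, and 1 CATTCC match on the other strand, a motif found in 10.7% of the windows. The Cnn1 window held neither motif in these letters, beside a log2 fold change of 1.32 for the gene. Single CATTCC matches were also found in the windows of Smtn and Lmod1, and none of the motifs in that of Cspg4.

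Of serum response factor and factors linked to it, 5 genes, a choice made after their values were seen, are described here for Tg-RKIP against FVB hearts. Myocd, the myocardin coactivator of smooth muscle genes, fell by 1.498 on the log2 scale (SE 0.042, adjusted p = 1.90e-18, edgeR) and had a level of 5.08 ± 0.11 TPM in Tg-RKIP hearts where FVB hearts had 10.9 ± 0.52 TPM (SD, n = 3). Mrtfa, a related coactivator that responds to free actin, rose by 0.43 (SE 0.067, adjusted p = 6.12e-06, edgeR). Mrtfb, the other coactivator of this kind, fell by 0.47 (SE 0.042, adjusted p = 1.58e-09, edgeR), and was at -0.10 with library size only (adjusted p = 0.047, edgeR) and -0.14 in limma on log2(TPM + 0.1), where it missed the threshold (adjusted p = 0.069). Srf itself was at -0.09 (adjusted p = 0.013, edgeR), and this direction was reversed to 0.29 with library size only. Myocd was lower in both scalings, at -1.12 with library size only. Tead1, a factor of the family that binds the CATTCC motif, fell by 0.69 in Tg-RKIP hearts (SE 0.023, adjusted p = 5.37e-17, edgeR) and by 0.32 with library size only, and rose by 0.27 in the libraries labelled Tg-GRK2 (SE 0.023, adjusted p = 8.38e-09, edgeR). Srf also rose in those libraries, by 0.13 (SE 0.031, adjusted p = 0.0036, edgeR), while Myocd, Mrtfa and Mrtfb did not pass there.

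Other contractile and cytoskeletal genes of smooth muscle were represented by 24 tested genes. In Tg-RKIP hearts, 19 rose, 4 fell and 1 did not pass, with a median log2 fold change of 0.59, where 36.8% of all genes tested were called higher and 37.1% lower. Among those that rose most were Ckb, a creatine kinase, with 1.16 (SE 0.031), Map3k7cl with 1.09 (SE 0.15), Cnn2, a calponin found outside muscle, with 1.09 (SE 0.040), and Myl6, a myosin light chain of smooth muscle and other cells, with 0.94 (SE 0.025). Those that fell were Pcp4l1 with -0.61 (SE 0.034), Ppp1r12b, a myosin phosphatase subunit, with -0.61 (SE 0.019), the tropomyosin gene Tpm1 with -0.57 (SE 0.012), which cardiomyocytes express too, and Itga8 with -0.44 (SE 0.054). With library size only, 19 rose and 3 fell, beside 62.6% and 17.1% of all genes, and Itga8 was at -0.06 (adjusted p = 0.285, edgeR). In the libraries labelled Tg-GRK2, 5 of the 24 genes rose and 7 fell, with a median of -0.04, beside 12.2% of all genes called in each direction. With library size only 5 rose and 4 fell, beside 13.5% and 10.7% of all genes, and in limma on log2(TPM + 0.1) 6 rose and 1 fell, beside 13.1% and 6.05%, so the balance depended on the scaling.

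Of the 16 pericyte genes, 7 rose, 5 fell and 4 did not pass in Tg-RKIP hearts, with a median log2 fold change of 0.11. Among all genes tested, 36.8% were called higher and 37.1% lower, so these counts do not set the pericyte genes apart. Colec11 rose by 1.41 (SE 0.079), the aminopeptidase gene Anpep by 1.07 (SE 0.059), the adhesion molecule gene Mcam by 0.71 (SE 0.036) and the transcription factor gene Tbx18 by 0.66 (SE 0.080). Anpep and Mcam are also expressed by other cells. Abcc9, the sulfonylurea receptor subunit of the ATP-sensitive potassium channel that cardiomyocytes also express, fell by 1.53 (SE 0.020), P2ry14 by 0.65 (SE 0.13), Kcnj8, the channel's pore subunit, by 0.60 (SE 0.044) and vitronectin, Vtn, by 0.36 (SE 0.081). With library size only, 11 rose and 3 fell, beside 9710 and 2649 of all 15504 genes, and Vtn was at 0.01 (adjusted p = 0.899, edgeR). Abcc9, P2ry14 and Kcnj8 were lower with either scaling. In the libraries labelled Tg-GRK2, 1 of the 16 rose and 4 fell, beside 12.2% of all genes each way. These counts became 2 and 2 with library size only and 2 and 1 in limma on log2(TPM + 0.1), so the lean toward lower values was lost.

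Among 6 genes of the platelet-derived growth factor system beside Pdgfrb, 5 rose and 1 fell in Tg-RKIP hearts, beside 36.8% and 37.1% of all genes tested. Pdgfrl, a receptor-like gene, rose by 2.01 (SE 0.094, adjusted p = 1.91e-14, edgeR), and the ligand gene Pdgfd fell by 0.26 (SE 0.048, adjusted p = 4.80e-05, edgeR), which was reversed to 0.11 with library size only. Pdgfb, the ligand of the receptor on mural cells, rose by 0.14 (SE 0.040, adjusted p = 0.0033, edgeR) and Pdgfra, the receptor of fibroblasts, by 0.26 (SE 0.031, adjusted p = 1.45e-07, edgeR). These last 2 genes were added for their role after their values were seen.

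The 10 genes of elastic fibres and the vessel wall matrix all rose in Tg-RKIP hearts, by log2 fold changes between 0.98 for Ltbp4 and 3.38 for elastin, Eln (SE 0.041, adjusted p = 8.73e-25, edgeR). Eln was at 132 TPM in Tg-RKIP hearts and 9.27 TPM in FVB hearts. In the libraries labelled Tg-GRK2, 8 of the 10 were higher than in FVB hearts, with a median of 0.26 beside 1.76 in Tg-RKIP hearts. Over all genes tested, 36.8% were called higher and 37.1% lower in Tg-RKIP hearts, and 12.2% each way in the group labelled Tg-GRK2. Of 17 genes of activated fibroblasts and myofibroblasts, among them Lox, which the matrix list also holds, 16 rose in Tg-RKIP hearts with a median of 2.25. Comp, a cartilage and tendon matrix protein that activated fibroblasts also make, rose by 4.28 (SE 0.029) and Tgfb1, the growth factor that induces Acta2 in fibroblasts, by 0.63 (SE 0.041). Fap, a protease of activated fibroblasts, was the member that did not pass, at -0.22 (adjusted p = 0.086, edgeR), whereas it was at 0.50 in limma on log2(TPM + 0.1) (adjusted p = 0.0085). In the libraries labelled Tg-GRK2, 5 of the 17 rose and 1 fell.

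**Figure D4:**
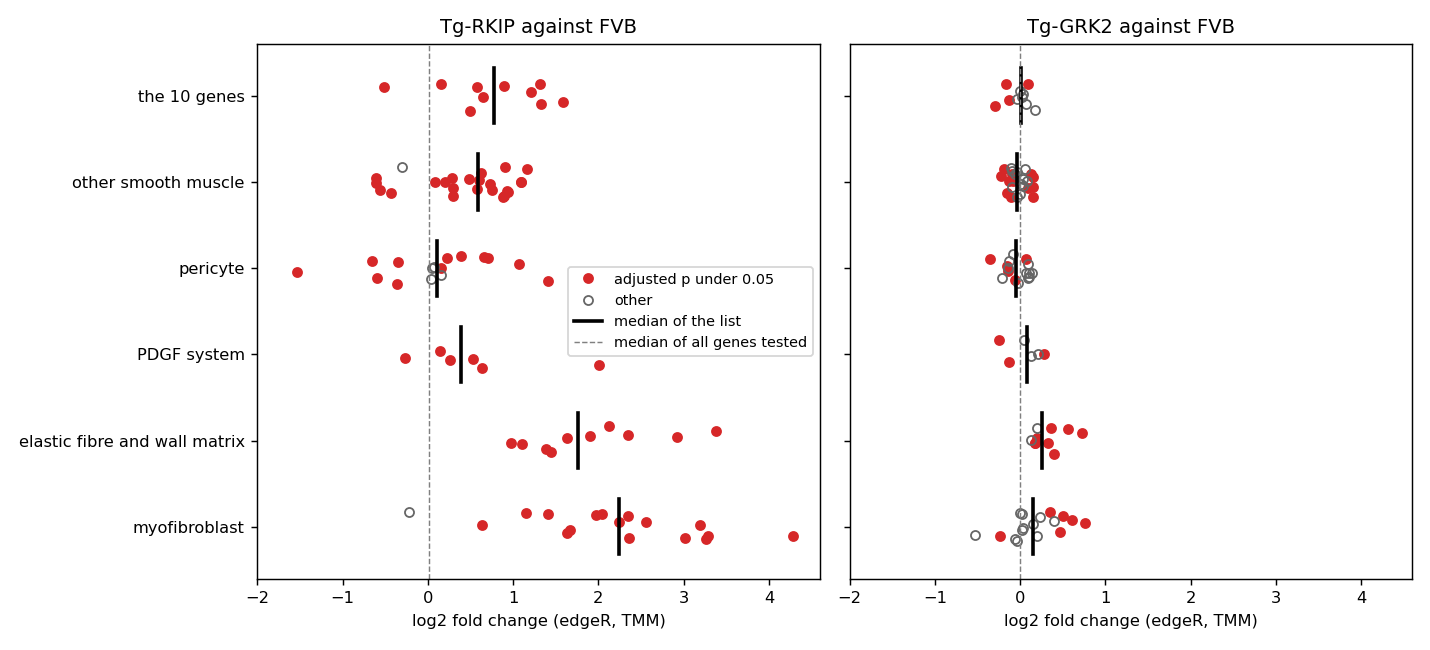
Log2 fold change (edgeR, TMM) of single genes in 6 lists, for Tg-RKIP (left) and for the group labelled Tg-GRK2 (right), each against FVB hearts, with filled points for an adjusted p under 0.05, black bars for the list median and a dashed line for the median of all genes. In the left panel the medians run from 0.11 for the pericyte list to 2.25 for the myofibroblast list.

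The other actin genes were compared because their sequences resemble Acta2. Acta1, the skeletal muscle alpha-actin, rose by 2.66 in Tg-RKIP hearts (SE 0.019, adjusted p = 1.26e-28, edgeR), and its share of the TPM of 6 actin genes was 21.7% ± 0.18 against 4.32% ± 0.032 in FVB hearts (SD, n = 3). The cardiac actin Actc1 had 69.8% ± 0.19 against 89.2% ± 0.040 of this sum, and Acta2 had 2.54% ± 0.074 against 1.59% ± 0.066 (SD, n = 3). Acta2 thus held a small part of the actin transcripts in every group. Of the stretches of 50 bases in the main Acta2 transcript, 0.352% also occur in other genes, and of those in Myh11 0.4% occur in the related myosin genes Myh9 and Myh10, whereas Actg2, Cnn1, Myl9, Lmod1, Smtn, Pdgfrb and Cspg4 shared none. Only exact matches of main transcripts were counted, so sharing of reads that align with mismatches was not tested. Actg1, a cytoplasmic actin, rose by 0.56 (SE 0.018) and Myl12b, a non-muscle myosin light chain, by 1.08 (SE 0.079). The cardiac myosin gene Myh6 fell by 1.35 (SE 0.010) in read counts, by 0.98 with library size only and by 0.19 in limma on log2(TPM + 0.1), so the size of this fall depended on the unit. Of the 4 other actin genes 3 rose and 1 did not pass, of 10 relatives of the smooth muscle myosins 7 rose and 3 fell, and of 8 tested relatives of Lmod1, Tagln and the calponins 4 rose and 3 fell, which became 8 and 0 with library size only. Of all genes tested, 36.8% were called higher and 37.1% lower, and with library size only 62.6% and 17.1%, so the 4 and 3 lie near the share over all genes.

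Markers of other cell types differed between the same groups, and their part in these results was not tested. The summed TPM of 11 fibroblast markers was 4074 to 4091 in Tg-RKIP hearts, 1879 to 1900 in FVB hearts and 2109 to 2167 in the libraries labelled Tg-GRK2, and 9 of the 11 were called higher in Tg-RKIP than in FVB hearts. For 12 endothelial markers the sum was 898 to 915, 520 to 526 and 519 to 530 in the same order, with 7 higher and 4 lower in Tg-RKIP hearts. For 12 cardiomyocyte markers it was 51422 to 52204, 58313 to 58710 and 56352 to 58093, with 11 of 12 lower in Tg-RKIP hearts and 8 of 12 with library size only. For 8 macrophage markers the sum was 833 to 837, 320 to 332 and 363 to 377, and all 8 were called higher in Tg-RKIP than in FVB hearts. For 6 Schwann cell markers it was 29.9 to 31.2, 7.65 to 8.25 and 9.75 to 10.1, with 5 higher. For 10 skeletal muscle markers it was 8.04 to 9.29, 2.96 to 5.14 and 4.20 to 4.55, with 2 of the 4 tested higher. The counts for Tg-RKIP against FVB hearts stand beside 36.8% of all genes called higher and 37.1% called lower, or 62.6% and 17.1% with library size only.

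Markers of airway, cartilage and fat cells also differed between the groups, and where in the samples their transcripts arose was not tested. The summed TPM of 13 airway and alveolar markers was 102 to 108 in Tg-RKIP hearts and 206 to 217 in the libraries labelled Tg-GRK2, but 0.431 to 1.08 in FVB hearts, where 8 of the 13 had no read. The club cell gene Scgb1a1 had 388, 510 and 395 reads in Tg-RKIP hearts, 0 in each FVB heart, and 1190, 1085 and 1284 in the libraries labelled Tg-GRK2. The 13 cartilage markers summed to 83.2 to 85.5 TPM in Tg-RKIP hearts, 9.62 to 10.4 in FVB hearts and 8.31 to 9.52 in the libraries labelled Tg-GRK2. The cartilage collagen gene Col2a1 had 2593, 3291 and 2563 reads in Tg-RKIP hearts, 0, 1 and 3 in FVB hearts and 1, 1 and 3 in the libraries labelled Tg-GRK2. The 10 adipocyte markers summed to 468 to 472 TPM in Tg-RKIP hearts, 118 to 123 in FVB hearts and 163 to 165 in the libraries labelled Tg-GRK2. Among them are Adipoq, Cidec, Retn and Ucp1, whose rise in Tg-RKIP hearts the paper attributes to activation of Pparg. Smooth muscle also occurs in airways and large vessels, and the part that such tissue had in the levels of the 10 genes was not tested.

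The genes whose normalized counts over the 9 libraries followed the mean standardized profile of the 10 genes most closely were, out of 11326 other genes, Ltbp2, Fxyd5, Gpm6a, Arl8a and Trim59, with Pearson correlations of 0.997 to 0.999. These points are 9 libraries of 3 groups, so the correlation is given as a description with no test. Among the members the correlation with that profile was between 0.937 for Lmod1 and 0.997 for Cnn1, with the exception of Myh11 at -0.974. Each member is itself part of that profile, so these correlations are no test of likeness. Ltbp2 is also in the myofibroblast list and rose by 3.19 on the log2 scale in Tg-RKIP hearts.

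The genes lie on 8 chromosomes in the deposited GRCm39 coordinates, so that most of them are not neighbours. Acta2 is at chr19:34218490-34232990, Tagln at chr9:45840917-45847356, Myh11 at chr16:14012399-14109236, Cnn1 at chr9:22010512-22020926 and Myl9 at chr2:156617340-156623578. Smtn is at chr11:3467523-3490612, Lmod1 at chr1:135252545-135295803, Actg2 at chr6:83489887-83513247 and Cspg4 at chr9:56772317-56807154, and Pdgfrb is on chromosome 18. Tagln, Cnn1 and Cspg4 share chromosome 9 without overlapping.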

How the data were processed

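Total RNA of the hearts was extracted, and the mRNA was fragmented, copied into cDNA with random hexamers and sequenced as single reads of 50 bases. The authors deposited, per transcript and library, whole-number read counts and TPM values (read counts scaled by transcript length to a fixed sum per library), with coordinates on GRCm39 per the submitters' processing notes. The aligner, the counting program and the strand setting are not given in the sources used here, so reads of overlapping antisense genes cannot be told apart, and the split of reads among transcripts of a gene could not be checked.

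Counts of 127558 transcripts were summed over the 41710 gene names, as were the deposited TPM values. Gene counts were tested in edgeR 4.0.16 (R 4.3.3; TMM, filterByExpr, quasi-likelihood, 1 mean per group, all 9 libraries, Benjamini-Hochberg over 15504 genes, threshold 0.05). The precision of the libraries, of 25458108 to 33447654 reads, was a common biological coefficient of variation of 2.86%. Single TPM values were compared by exact two-sided permutation tests. On simulated counts of 15202 genes for Tg-RKIP against FVB, the test recovered 71.0%, 87.1% and 91.3% of genes changed by log2 folds of 0.5, 1 and 2, with 12 false among 178 calls. Only 69, 62 and 69 genes were changed at these folds, in both directions and in Tg-RKIP alone. The simulation therefore does not cover a change of most genes, a shifted mitochondrial share or the choice of scaling.

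Alternatives were DESeq2 (1.42.0) and its size factors, library size only, library size without mitochondrial genes, Pebp1 and Pbp2, other filters, a replicate block, the 2 groups alone, each library left out, the most abundant transcript, protein-coding transcripts only, either of these with library size only, a fold change of at least 1.5, and limma (3.58.1) on log2(TPM + 0.1) and log2(TPM + 1). Named are the 10 members, from each list the largest and smallest log2 fold change past the threshold in Tg-RKIP against FVB (4 of each for smooth muscle and pericyte genes), genes that may share reads with a member, and the 5 most alike in profile; other names were chosen after their values were seen. Members and lists were chosen with earlier results of these data known. Some genes are in more than 1 list, such as Lox, Mfap5, Pdgfra, Cnn2, Cnn3, Tagln2 and Myl6, so the counts of the lists are not independent. Replicates are separate hearts per the study's figure legends, which give 3 hearts per group, whereas the labels give only replicate numbers. Between 2 libraries of a group, the median squared difference of genes was 1.37 to 1.52 times that of sampling noise. The small SE and adjusted p values rest on this narrow spread. The counts of some further gene lists are not reported here.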

Additional observations from a re-analysis of the deposited data

How the results depend on the processing

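Calls of the 10 genes were counted under each alternative. Between Tg-RKIP and FVB hearts, 9 higher and 1 lower remained the counts with DESeq2, its size factors, library size only, both other filters, the 2 groups alone and each library left out. Library size without mitochondrial genes, Pebp1 and Pbp2 gave these counts too. With a tested fold change of at least 1.5, 5 were higher and 0 lower, and with limma on TPM values 9 were higher and 0 lower. With the most abundant transcript or protein-coding transcripts only, 2 were lower, since Cspg4 reversed to -0.27 and -0.23 (against the libraries labelled Tg-GRK2, -0.49 and -0.45). With library size only as well, the most abundant transcript left 0 lower against either group and 0 higher between the libraries labelled Tg-GRK2 and FVB. Myh11 then reversed to 0.17 against FVB and 0.20 against the libraries labelled Tg-GRK2, and Cspg4 to -0.062 against the latter (-0.077 with protein-coding transcripts). Between Tg-RKIP and the libraries labelled Tg-GRK2, 4 were higher and 0 lower at the tested fold change, and 2 were lower with protein-coding transcripts. Between the libraries labelled Tg-GRK2 and FVB, the number higher was 0 to 1 with a library left out and 0 with the most abundant transcript, protein-coding transcripts, the tested fold change or unfiltered TPM, and the number lower was 0 at the tested fold change and 1 with limma.

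Over all genes, higher and lower calls between Tg-RKIP and FVB were 5709 and 5751, but 9710 and 2649 with library size only, 1975 and 1690 at the tested fold change, 8932 and 1964 with limma on log2(TPM + 0.1), 8956 and 1960 on log2(TPM + 1) and 9223 and 1941 without a TPM filter. Against the libraries labelled Tg-GRK2, they were 9608 and 2847 with library size only and 2033 and 1834 at the tested fold change, with 2296, 2308 and 2241 lower in the 3 limma fits. Between the libraries labelled Tg-GRK2 and FVB, they were 816 and 844 with the most abundant transcript and 82 and 73 at the tested fold change, with 1098 higher without a TPM filter and 815, 807 and 442 lower in the limma fits. With library size only on top of the transcript choice, added after the data were seen, the most abundant transcript gave 2005 lower between Tg-RKIP and FVB, 2229 lower against the libraries labelled Tg-GRK2, and 875 and 734 between these and FVB, and protein-coding transcripts gave 8974 and 2467, 8898 and 2685, and 1226 lower. The cause of these shifts was not tested. With a library left out, higher calls ranged from 5446 to 5850 between Tg-RKIP and FVB and from 1576 to 1892 between the libraries labelled Tg-GRK2 and FVB.

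Signs that turned in the latter comparison belonged to genes that passed no test. Myh11 was at 0.0019 with DESeq2 size factors, 0.0040 with library size, 0.0026 with DESeq2, 0.0019 with protein-coding transcripts and library size only, and 0.043, 0.041 and 0.043 in limma, Smtn at 0.018, 0.017 and 0.018, and Cspg4 at -0.065, -0.056 and -0.065. With a library left out, Myh11 ranged from -0.048 to 0.015, Cspg4 from -0.017 to 0.068, Cnn1 from -0.020 to 0.11 and Lmod1 from -0.024 to 0.15. Same-numbered libraries share only a number, as their deviations correlated by -0.041 to 0.042. A replicate block gave 5666 and 5735 calls between Tg-RKIP and FVB and changed no call of the 10 genes. Depth limits Actg2 and Lmod1 most, with 58 to 174 and 180 to 408 reads.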
